A study of Mus musculus with 6 samples.

Results

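The proteasome is the protease of the cytosol and nucleus that destroys proteins marked with ubiquitin. Its barrel-shaped core is built from rings of alpha and beta subunits, and 3 of the beta subunits cut the substrate. A cap on the barrel, made of a base with a ring of ATPases and of a lid, binds ubiquitin, removes it, unfolds the protein and feeds it into the core. Dedicated assembly factors build core and cap, and other caps can take the place of the ubiquitin-binding one. Cells exposed to interferon swap the cutting subunits for the immunoproteasome forms. The account here is of the constitutive proteasome genes, taken as every gene symbol that starts with Psm, a letter from a to g and a digit, without the immunoproteasome genes Psmb8, Psmb9, Psmb10, Psme1 and Psme2. This gave 45 of the 19938 genes on the arrays, each read from its brightest probe set over all arrays. Of these, 43 encode subunits, caps, an inhibitor or assembly factors. The pattern also took Psmc3ip, a recombination factor named for binding an ATPase subunit, and Psme3ip1, which binds the cap protein PSME3. Neither encodes a subunit of the proteasome.

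The cells were 4T1, a mouse mammary carcinoma line, grown in medium with 10% serum in 10 cm dishes and treated from 24 h after seeding. TKI258, or dovitinib, an inhibitor of the FGF, VEGF and PDGF receptor kinases, was given at 500 nM for 16 h to 3 dishes, and its vehicle DMSO to 3 dishes, with 1 Affymetrix array per dish. The question is how transcript levels change when these kinases are blocked. A single cell line and a single dose and time limit what the groups stand for.

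Signals are log2 values, so a difference of 1 is a doubling. Array medians over all probe sets were 5.01 to 5.04 on TKI258 arrays and 4.97 to 5.04 on DMSO arrays, and the correlation over all genes was 0.997 to 0.998 between arrays of a group. Of 8 epithelial markers 2 were lower (Krt18 and Krt7) and 3 higher (Cdh1, Krt19 and Cldn4, at log2 changes of 1.09, 0.94 and 0.89), with summed linear signals of 7636 to 8277 on TKI258 arrays and 7975 to 8773 on DMSO arrays. None of the 5 endothelial or 4 measured lymphocyte markers passed the test, and all had means below the median of all probe sets, 5.01. Of 7 macrophage markers 2 were lower (Cd53 and Fcer1g, at log2 changes of -1.76 and -0.33) and 1 higher (Cd68, at 0.82). Their summed linear signals, in which these opposite changes partly cancel, were 238 to 319 on TKI258 arrays and 262 to 278 on DMSO arrays. The leukocyte gene Ptprc stayed at means of 3.73 on TKI258 arrays and 3.76 on DMSO arrays. Of 6 fibroblast markers 2 were higher (Dcn and Pdgfra, at log2 changes of 2.01 and 1.5). Summed linear signals of the 6 were 1090 to 1164 on TKI258 arrays and 482 to 510 on DMSO arrays. The sum mostly reads Pdgfra, the brightest of them, with means of 9.83 on TKI258 arrays and 8.33 on DMSO arrays. Col1a1, Col1a2, Col3a1 and Lum did not pass, at log2 changes of 0.18, 0.09, -0.05 and 0.16. The part of the marker genes in the results was not tested. In bulk RNA, fewer cells of a type and less RNA per cell cannot be told apart.

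After TKI258, 15 of the 45 genes were lower, 1 was higher and 29 did not pass limma at a Benjamini-Hochberg adjusted p below 0.05 over all genes. Of the 17 genes of the ubiquitin-binding cap 8 fell, among them 6 of 8 lid genes and 2 of 9 base genes, while 2 of 16 core genes fell. The split by role depended on the setting: with a variance trend and robust moderation 6 lid, 6 base and 5 core genes were called lower, without TKI258 replicate 3 it was 7, 4 and 3, and no core gene was called without DMSO replicate 2, without DMSO replicate 3 or without TKI258 replicate 2. Of 7 assembly factors 3 fell and 1, Psmd10, rose. Over all 19938 genes 12.6% were called lower and 14.4% higher, 27.0% in all. Among the 11236 genes with a mean signal above 5, a level that 43 of the 45 members exceeded, 21.2% were called lower.

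The changes were small. Genes called lower fell by 15.4% to 27.5% on the linear scale. The median log2 change, TKI258 minus DMSO, was -0.16 over the 45 genes, -0.32 over the lid, -0.18 over the base, -0.13 over the core and -0.16 over the assembly factors, beside 0.01 over all genes. The log2 change was below 0 in 38 of the 45 genes (84.4%), against 46.2% of all genes. All 3 TKI258 arrays lay below all 3 DMSO arrays in 26 members, or 57.8%, where 18.8% of all genes had that order. Among genes with a mean signal above 5 the share was 29.3%, and 47.8% of those genes had a log2 change below 0. In 1 member all TKI258 arrays lay above, an order that 21.4% of all genes had. The groups did not overlap in 40.2% of all genes. These shares describe the list, and no test of the list was made.

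**Figure D1:**
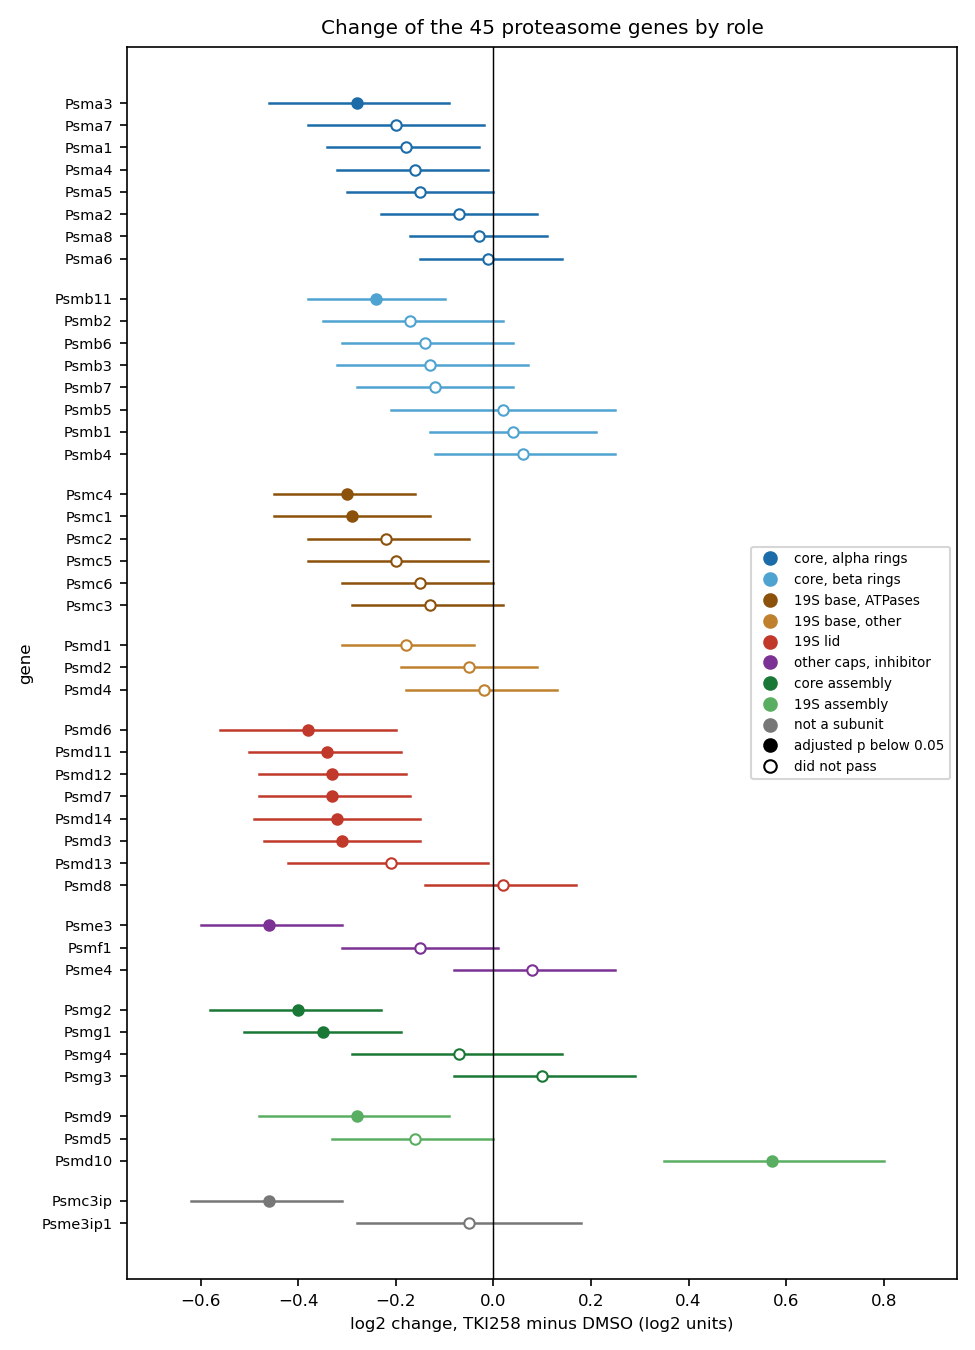
Log2 change (TKI258 minus DMSO, log2 units) of each of the 45 genes, grouped by role, with points at the estimate and lines over its 95% confidence interval from limma (n = 3 arrays per group). Filled points are the 16 genes with an adjusted p below 0.05; the lid holds 6 of them and Psmd10 is the only one to the right of 0.

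The 3 TKI258 arrays were not equally low. Replicate 1 held the lowest TKI258 signal in 36 of the 45 genes (80.0%) and replicate 3 the highest in 36 (80.0%), against 35.0% and 41.7% of all genes. Among genes with a mean signal above 5 these shares were 41.1% and 50.2%. Averaged over the 45 genes, the signals on TKI258 replicates 1, 2 and 3 lay 0.24, 0.16 and 0.08 log2 units below the DMSO mean, and those on the DMSO arrays lay within 0.04 of it. The median SD within a group was 0.098 log2 units on TKI258 arrays and 0.056 on DMSO arrays. Without TKI258 replicate 1, 13 genes were called lower, without replicate 3 20 were, and Psmd10 was called higher in both cases.

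**Figure D2:**
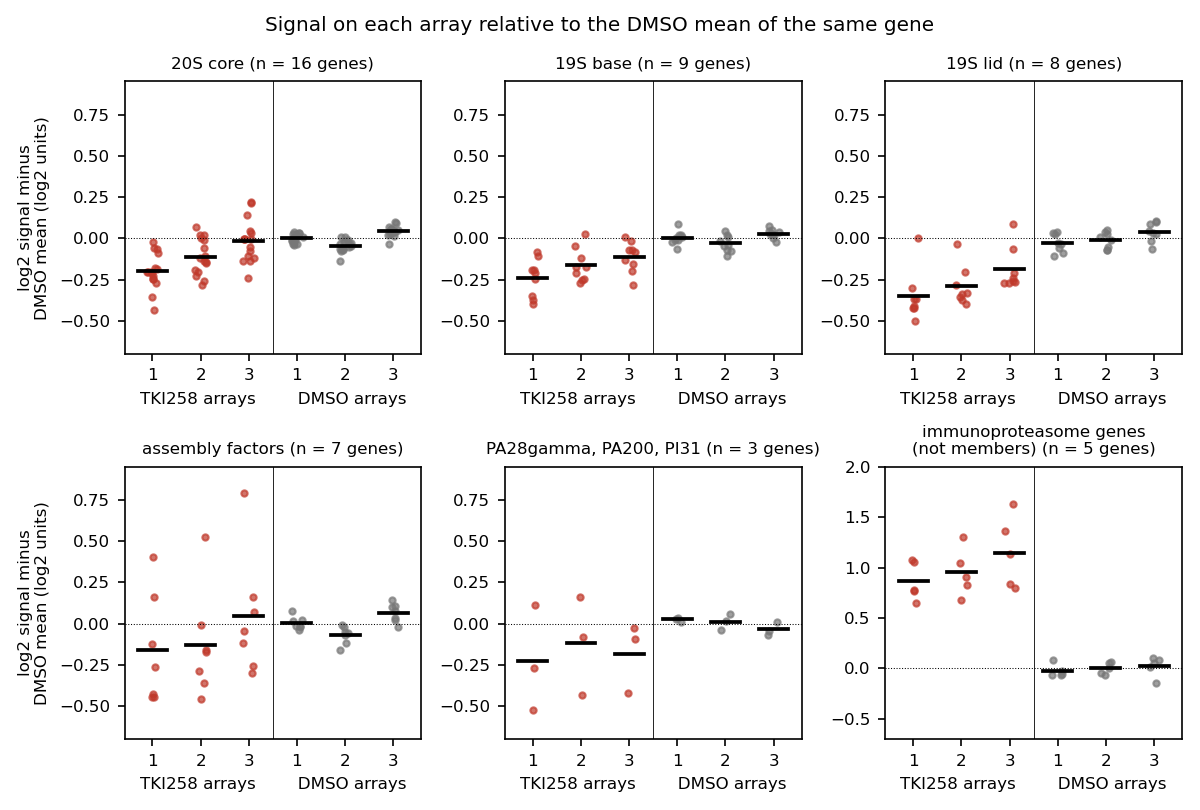
Signal of each gene on each array minus that gene's mean over the DMSO arrays (log2 units), by role, with TKI258 arrays left and DMSO arrays right; points are genes and bars are their mean on that array. The lid genes average -0.35, -0.29 and -0.19 on TKI258 replicates 1, 2 and 3, the core genes -0.20, -0.11 and -0.01, and the 5 immunoproteasome genes, on a taller axis, 0.86, 0.95 and 1.15.

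Promoters of the genes were read from RefSeq windows of assembly GRCm38.p6, which run from 250 bases before to 50 bases after an annotated start and were found for 37 of the 45 genes. The windows below are those of Psme3, which encodes a nuclear cap and fell most among the proteasome genes with a window, of the lid gene Psmd6, which fell next most, and of Psmd10, the gene that rose. The window of Psmb5, an active-site gene that did not pass, was added after its value was seen. Capitals mark matches, on either strand, to the antioxidant response core TGACNNNGC bound by NRF1 and NRF2, the CCAAT box, the E box CACGTG and the ETS core CGGAAG. The E box reads the same on both strands, and no matches in these 4 windows overlap.
Psme3 (chr11:101315963-101316262, plus strand): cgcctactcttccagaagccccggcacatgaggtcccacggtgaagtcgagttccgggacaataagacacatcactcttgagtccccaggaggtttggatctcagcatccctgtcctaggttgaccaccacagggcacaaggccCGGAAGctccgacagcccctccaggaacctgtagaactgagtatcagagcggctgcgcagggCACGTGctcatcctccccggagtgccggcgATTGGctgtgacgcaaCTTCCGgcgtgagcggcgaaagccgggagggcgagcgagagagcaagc
Psmd6 (chr14:14120896-14121195, minus strand): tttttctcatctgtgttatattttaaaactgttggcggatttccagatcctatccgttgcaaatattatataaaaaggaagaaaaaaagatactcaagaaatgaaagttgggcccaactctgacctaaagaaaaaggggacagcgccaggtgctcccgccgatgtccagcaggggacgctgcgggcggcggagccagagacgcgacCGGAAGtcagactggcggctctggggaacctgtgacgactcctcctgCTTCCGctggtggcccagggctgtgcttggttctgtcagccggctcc
Psmd10 (chrX:140956662-140956961, minus strand): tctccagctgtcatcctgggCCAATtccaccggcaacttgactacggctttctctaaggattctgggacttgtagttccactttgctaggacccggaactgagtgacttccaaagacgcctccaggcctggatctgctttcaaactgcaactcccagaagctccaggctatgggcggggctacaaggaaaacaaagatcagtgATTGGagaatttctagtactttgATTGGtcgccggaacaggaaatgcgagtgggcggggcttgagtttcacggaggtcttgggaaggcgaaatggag
Psmb5 (chr14:54617946-54618245, minus strand): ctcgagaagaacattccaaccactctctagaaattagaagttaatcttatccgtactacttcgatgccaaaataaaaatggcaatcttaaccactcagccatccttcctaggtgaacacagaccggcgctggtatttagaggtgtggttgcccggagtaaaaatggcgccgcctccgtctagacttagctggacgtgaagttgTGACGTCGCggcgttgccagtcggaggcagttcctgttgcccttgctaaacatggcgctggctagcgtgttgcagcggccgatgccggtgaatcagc

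The windows of Psme3 and Psmd6 each held 2 ETS cores, 1 of them just past the start. The Psmd10 window held 3 CCAAT boxes and the Psmb5 window 1 antioxidant response core. Among the 37 genes with a window the ETS core was found in 24 (64.9%), including all 6 lid genes with a window, against 18.8% of 27025 genes with a window. Among genes on the array with a mean above 5 and a window, 35.8% held it. Of the 24 genes with an ETS core 10 were called lower and none higher, and of the 13 without it 2 were called lower and 1 higher. The share called lower among all genes with an ETS core was not counted, so these counts cannot link the motif to the calls. The lid genes Psmd8 and Psmd13 held the core and did not pass, and Psmd3, Psmd7 and Psmg2, called lower, had no window. The shares of the other motifs lay closer to those of all genes, at 16.2% and 14.0% for the antioxidant response core, 40.5% and 41.1% for the CCAAT box and 10.8% and 8.1% for the E box. A match is a run of letters, and no binding was measured here.

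The lid, which holds the cap's own ubiquitin-cleaving enzyme and a set of scaffold subunits around it, fell in 6 of 8 genes. Psmd6, a scaffold subunit whose window is printed above, had 10.01, 10.11 and 10.27 on TKI258 arrays, against 10.55, 10.44 and 10.54 on DMSO arrays. All TKI258 arrays lay below all DMSO arrays, and the log2 change was -0.38 (SE 0.08, adjusted p = 0.00672 in limma). Psmd11, also a lid gene, gave 10.07, 10.16 and 10.23 with TKI258, against 10.53, 10.53 and 10.43 with DMSO, a log2 change of -0.34 (SE 0.07, adjusted p = 0.0051 in limma). Psmd12, another scaffold subunit, had 10.22, 10.23 and 10.33 on TKI258 arrays and 10.53, 10.62 and 10.62 on DMSO arrays. Its log2 change was -0.33 (SE 0.07, adjusted p = 0.00481 in limma). The groups were again apart in both genes.

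Psmd14 encodes the metalloprotease that cuts ubiquitin chains off the substrate, and Psmd7 its partner subunit. Psmd14 had 10.65, 10.72 and 10.85 on TKI258 arrays, against 10.97, 11.11 and 11.10 on DMSO arrays, a log2 change of -0.32 (SE 0.08, adjusted p = 0.0119 in limma). Its call was lost without DMSO replicate 2, at an adjusted p of 0.0508 in limma, over a range of 0.000502 to 0.0508 in 12 alternatives. Psmd7 had 10.00, 10.14 and 10.15 with TKI258, against 10.45, 10.41 and 10.40 with DMSO, a log2 change of -0.33 (SE 0.07, adjusted p = 0.00585 in limma). Psmd3, a large scaffold subunit, had 9.43, 9.36 and 9.47 on TKI258 arrays and 9.70, 9.66 and 9.84 on DMSO arrays, with a log2 change of -0.31 (SE 0.07, adjusted p = 0.00941 in limma). In these 3 genes every TKI258 signal lay below every DMSO signal.

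The remaining lid genes did not pass. Psmd13 had 8.92, 9.09 and 9.22 on TKI258 arrays, against 9.18, 9.30 and 9.39 on DMSO arrays, so the groups overlapped, with a log2 change of -0.21 (adjusted p = 0.131 in limma). It passed with the replicate number as a block and without TKI258 replicate 3. Psmd8 had a log2 change of 0.02 with a 95% interval of -0.14 to 0.17.

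The base holds the ATPase ring that unfolds the substrate. Of its 6 ATPase genes 2 fell, and in all 6 every TKI258 array lay below every DMSO array. That order was found in 18.8% of all genes and in 29.3% of those with a mean signal above 5. The gap was narrow in Psmc6, whose highest TKI258 and lowest DMSO signals both round to 10.92, and in Psmc3, at 9.61 and 9.62. Psmc4 had 9.55, 9.68 and 9.65 with TKI258, against 9.92, 9.89 and 9.98 with DMSO, a log2 change of -0.30 (SE 0.07, adjusted p = 0.0072 in limma). Psmc1 had 10.03, 10.15 and 10.23 with TKI258, against 10.43, 10.44 and 10.40 with DMSO, a log2 change of -0.29 (SE 0.07, adjusted p = 0.0137 in limma). Its call was lost without DMSO replicate 2, at an adjusted p of 0.0523 in limma, over a range of 0.000856 to 0.0523 in 12 alternatives. The other probe set of Psmc1, tested singly, had a log2 change of -0.24. Probe sets that share a symbol may read near-identical copies elsewhere in the genome, which was not checked here, so their likeness is no independent support. The doubt also covers the brightest probe set, whose signals are the ones printed.

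The other ATPase genes missed the threshold by a varying margin. Psmc2 had 9.91, 9.91 and 10.00 on TKI258 arrays and 10.24, 10.05 and 10.18 on DMSO arrays, a log2 change of -0.22 with an adjusted p of 0.0558 in limma. Psmc5 had 10.30, 10.48 and 10.58 on TKI258 arrays and 10.67, 10.61 and 10.68 on DMSO arrays, with a log2 change of -0.20 (adjusted p = 0.113 in limma). Psmc6 had 10.78, 10.81 and 10.92 on TKI258 arrays and 10.92, 11.03 and 11.01 on DMSO arrays, with a log2 change of -0.15 (adjusted p = 0.147 in limma). The sixth, Psmc3, had -0.13. Psmc2 passed without DMSO replicate 2 and Psmc5 without TKI258 replicate 3, and all but Psmc3 passed with a variance trend and robust moderation.

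None of the 3 other base genes passed. Psmd1, a large scaffold, had 11.39, 11.37 and 11.45 on TKI258 arrays and 11.57, 11.59 and 11.58 on DMSO arrays, a log2 change of -0.18 with an adjusted p of 0.0591 in limma. It passed in 3 of 12 alternatives, among them without TKI258 replicate 3. The groups were apart for Psmd1 but overlapped for Psmd2, the scaffold that docks ubiquitin receptors, and for Psmd4, itself a ubiquitin receptor, at log2 changes of -0.05 (95% interval -0.19 to 0.09) and -0.02 (95% interval -0.18 to 0.13).

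**Figure D3:**
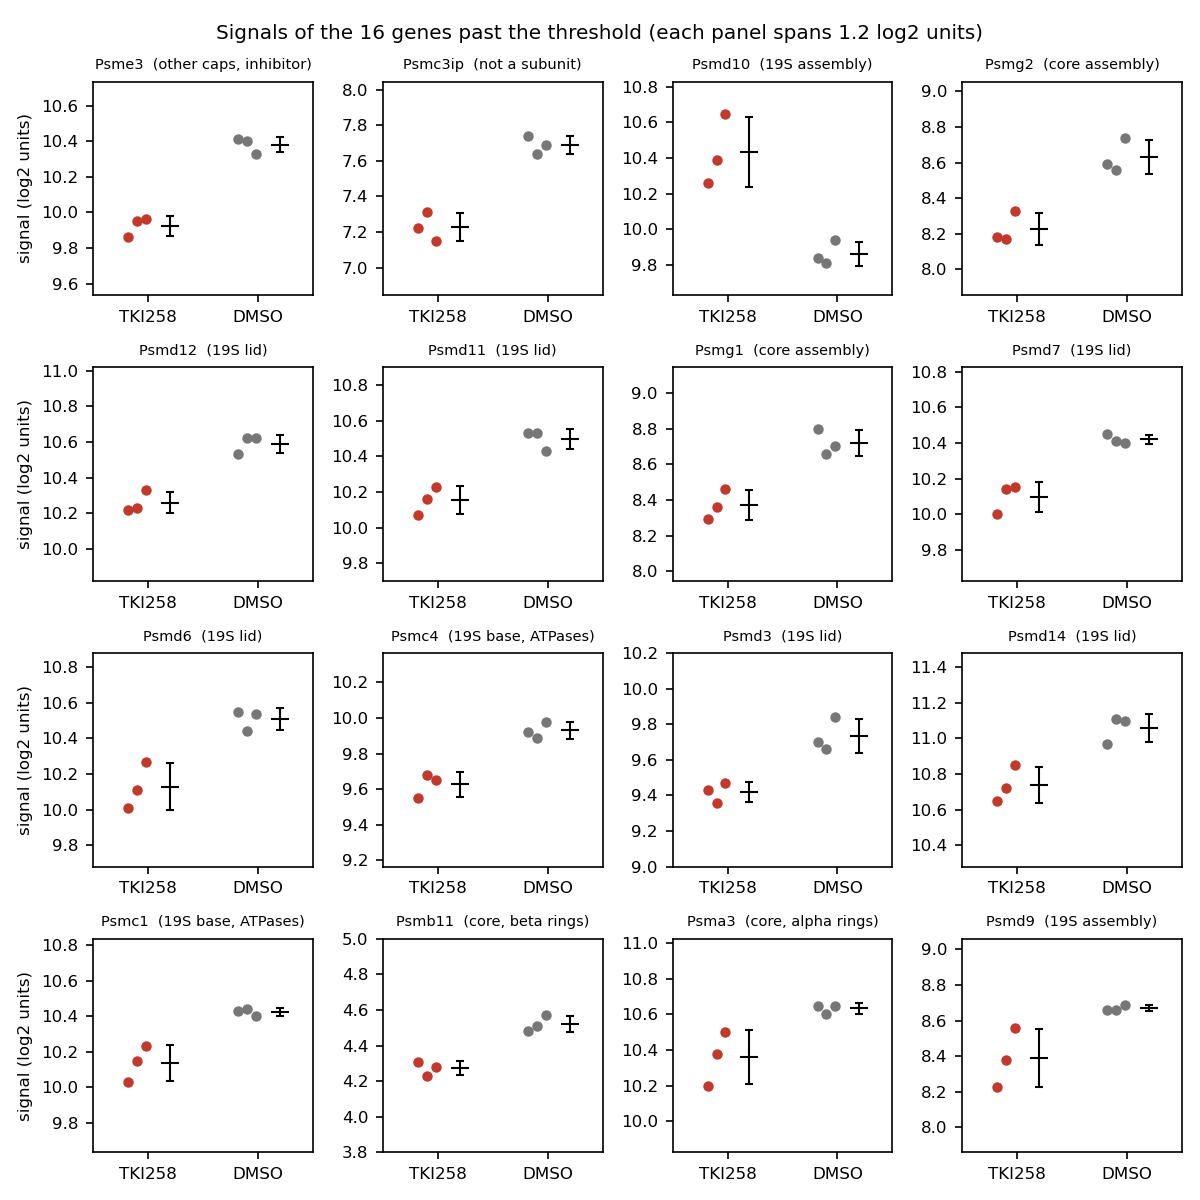
Signals (log2 units) of the 16 genes with an adjusted p below 0.05, in order of their p, with TKI258 arrays left and DMSO arrays right in each panel; points are arrays and bars the mean with its SD (n = 3). In all 16, which were picked by p from these same signals, the groups do not overlap, and neither do they in 40.2% of all genes. Psmd10 is the only gene of the 16 whose TKI258 arrays lie above its DMSO arrays.

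The core changed least by median among core, base and lid, at -0.13 beside -0.18 and -0.32. Over the 12 refits the core median ran from -0.18 to -0.09. This reaches the base median, which was not taken in the refits, so core and base cannot be ranked. Of the 8 alpha genes, which form the outer rings and the gate, only Psma3 passed. Psma3 had 10.20, 10.38 and 10.50 on TKI258 arrays, against 10.65, 10.60 and 10.65 on DMSO arrays, a log2 change of -0.28 (SE 0.08, adjusted p = 0.034 in limma). Its 3 probe sets, tested singly, had log2 changes of -0.28, -0.26 and -0.27. The doubt over near-identical copies holds for them too. The call was nevertheless lost when any of the arrays but TKI258 replicate 3 was left out, with adjusted p of 0.00387 to 0.0982 in limma over 12 alternatives.

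The other alpha genes did not pass. Psma1 had 10.27, 10.33 and 10.41 with TKI258, against 10.52, 10.46 and 10.58 with DMSO, a log2 change of -0.18 (adjusted p = 0.0832 in limma). Psma7 had 9.91, 10.14 and 10.14 with TKI258, against 10.24, 10.24 and 10.31 with DMSO, a log2 change of -0.20 (adjusted p = 0.108 in limma). Psma4 had 10.06, 10.20 and 10.17 with TKI258, against 10.33, 10.24 and 10.34 with DMSO, a log2 change of -0.16 (adjusted p = 0.12 in limma). The groups were apart in these 3 genes and in Psma5, at -0.15. They overlapped in Psma2 at -0.07, in Psma6 at -0.01 and in the testis form Psma8 at -0.03, which had mean signals of 3.72 on TKI258 arrays and 3.75 on DMSO arrays, below the median of all probe sets.

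Of the 8 beta genes only Psmb11, the thymus form, passed. It had 4.31, 4.23 and 4.28 on TKI258 arrays and 4.48, 4.51 and 4.57 on DMSO arrays, a log2 change of -0.24 (SE 0.06, adjusted p = 0.0182 in limma). These signals lie below the median of all probe sets, the table has no detection calls, and the call was lost with a variance trend and when TKI258 replicate 2 or either of DMSO replicates 2 and 3 was dropped, at adjusted p of 0.0176 to 0.0729 in limma over 11 alternatives. In the other 7 beta genes the groups overlapped.

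The active-site genes were among those that did not pass. Psmb5, the chymotrypsin-like site that the drug bortezomib blocks, had 8.98, 9.19 and 9.39 on TKI258 arrays, against 9.16, 9.09 and 9.26 on DMSO arrays, and a log2 change of 0.02 with a 95% interval of -0.21 to 0.25. Psmb6, the caspase-like site, had 9.91, 9.91 and 10.11 on TKI258 arrays, against 10.14, 10.04 and 10.15 on DMSO arrays, and -0.14 with an interval of -0.31 to 0.04. Psmb7, the trypsin-like site, had 11.13, 11.19 and 11.32 on TKI258 arrays, against 11.29, 11.34 and 11.36 on DMSO arrays, and -0.12 with an interval of -0.28 to 0.04. TKI258 replicate 3 was the highest TKI258 array in all 3. The beta genes without an active site, Psmb1 to Psmb4, had log2 changes of 0.04, -0.17, -0.13 and 0.06.

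Their immunoproteasome counterparts, outside the list, were higher after TKI258. Psmb8, which replaces PSMB5, had 7.11, 7.36 and 7.68 on TKI258 arrays, against 6.14, 6.11 and 5.91 on DMSO arrays, a log2 change of 1.33 (adjusted p = 0.000101 in limma). Psmb9, which replaces PSMB6, rose by 0.72 and Psmb10, which replaces PSMB7, by 0.94. The genes of the interferon-induced cap, Psme1 and Psme2, rose by 0.80 and 1.16. In these 5 genes every TKI258 array lay above every DMSO array, where 21.4% of all genes had that order, and the calls held in 12 of 12 alternatives.

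Of the 3 genes for other caps and the inhibitor only Psme3 passed, with the deepest fall among the 43 proteasome genes of the name pattern. Psme3, the nuclear cap that drives degradation without ubiquitin and whose window is printed above, had 9.86, 9.95 and 9.96 on TKI258 arrays, against 10.41, 10.40 and 10.33 on DMSO arrays. The gap between the groups was wider than the range within either, at a log2 change of -0.46 (SE 0.06, adjusted p = 0.000625 in limma), and Psme3 fell by 27.2% on the linear scale. Psme4, a nuclear activator linked to histone breakdown, had a log2 change of 0.08 (95% interval -0.08 to 0.25). Psmf1, which encodes a protein that inhibits the core in the test tube, had -0.15 (adjusted p = 0.179 in limma).

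The assembly factors had the widest range of log2 changes among the role groups, -0.40 to 0.57, with the upper end set by Psmd10 alone. Psmg1 and Psmg2 encode a pair of chaperones that starts the alpha ring. Psmg2 had 8.18, 8.17 and 8.33 on TKI258 arrays, against 8.59, 8.56 and 8.74 on DMSO arrays, a log2 change of -0.40 (SE 0.08, adjusted p = 0.00377 in limma). Psmg1 had 8.29, 8.36 and 8.46 on TKI258 arrays, against 8.80, 8.66 and 8.70 on DMSO arrays, a log2 change of -0.35 (SE 0.07, adjusted p = 0.00565 in limma). The groups were apart in both. Psmg3 and Psmg4, the second such pair, had log2 changes of 0.10 and -0.07 and overlapping groups.

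The chaperones of the base each bind ATPase subunits before the cap is complete. Psmd10, or gankyrin, which also binds the retinoblastoma protein and MDM2, rose. It had 10.26, 10.39 and 10.65 on TKI258 arrays, against 9.84, 9.81 and 9.94 on DMSO arrays, a log2 change of 0.57 (SE 0.10, adjusted p = 0.00224 in limma), or 1.49-fold. All TKI258 arrays were above all DMSO arrays. Psmd9 had 8.23, 8.38 and 8.56 on TKI258 arrays, against 8.66, 8.66 and 8.69 on DMSO arrays, a log2 change of -0.28 (SE 0.09, adjusted p = 0.0377 in limma). Its call was lost when any of the arrays but TKI258 replicate 3 was left out, over adjusted p of 0.0078 to 0.106 in 12 alternatives in limma. Psmd5 had a log2 change of -0.16 (adjusted p = 0.148 in limma).

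The pair of genes that the name pattern took without their being subunits split. Psmc3ip, which aids strand exchange in homologous recombination, had 7.22, 7.31 and 7.15 on TKI258 arrays, against 7.74, 7.64 and 7.69 on DMSO arrays, a log2 change of -0.46 (SE 0.07, adjusted p = 0.000879 in limma). Psme3ip1 had a log2 change of -0.05 and overlapping groups. Without these genes 14 of 43 were lower and 1 was higher.

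**Figure D4:**
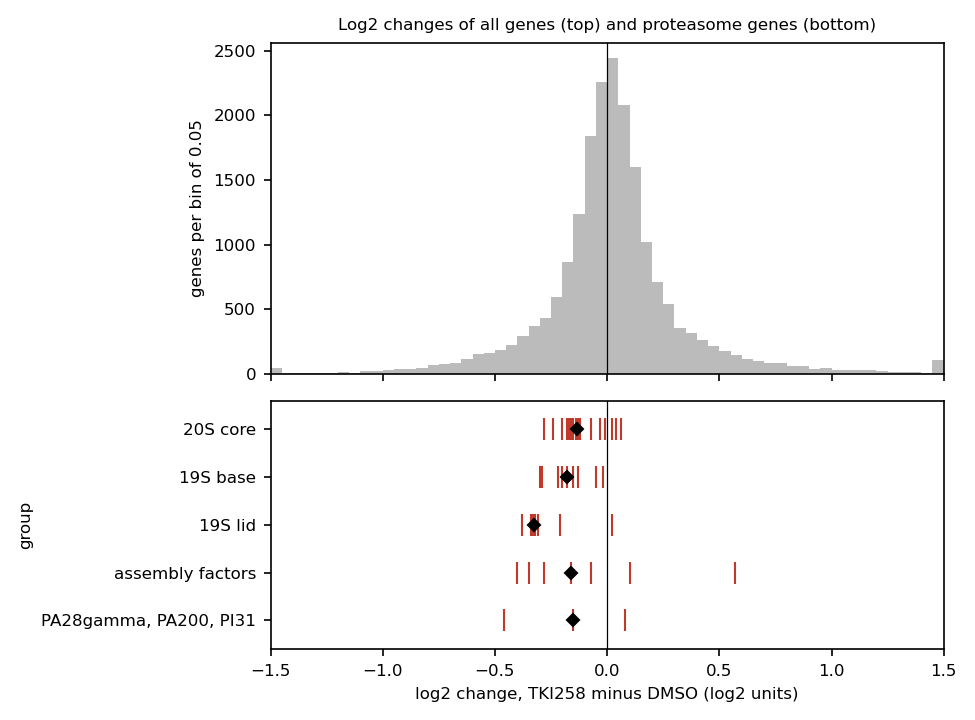
Histogram of the log2 changes (TKI258 minus DMSO, log2 units) of all 19938 genes in bins of 0.05, with values beyond 1.5 in the end bins (top), over the changes of the proteasome genes by role (bottom; lines are genes, diamonds medians). The medians lie at -0.13 for the core, -0.18 for the base and -0.32 for the lid, while that of all genes is 0.01.

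Partner genes outside the name pattern were read from lists of textbook knowledge, of which 26 genes were measured with a single symbol. Of 10 genes for further subunits, assembly factors and cap-bound enzymes 4 were lower and none higher, with a median log2 change of -0.11. The share called lower was 12.6% over all genes and 21.2% among those with a mean signal above 5, a level that all 10 exceeded. The cap-bound ubiquitin-cleaving enzyme gene Uchl5 had 9.61, 9.70 and 9.85 on TKI258 arrays, against 10.38, 10.43 and 10.42 on DMSO arrays, a log2 change of -0.69 (SE 0.08, adjusted p = 0.000157 in limma). Usp14, another such enzyme bound to the cap, fell by 0.25. Usp14 lost its call without DMSO replicate 2 (adjusted p = 0.0563 in limma, the highest of 12 alternatives, the lowest being 0.000816). Txnl1, a thioredoxin on the cap, fell by 0.32, and Pomp, the maturation factor of the core, by 0.24, a call kept in 6 of 12 alternatives. The small lid subunit gene Sem1 had a log2 change of 0.12 and did not pass.

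Of 8 genes tied to the transcription of subunit genes 1 was higher and 1 lower. Over all genes 14.4% were called higher and 12.6% lower. Among genes with a mean signal above 5, as all 8 had, the shares were 23.0% and 21.2%. Nfe2l1, which encodes the factor NRF1 that induces subunit genes when the proteasome is inhibited, had 10.15, 10.14 and 10.36 on TKI258 arrays, against 9.53, 9.51 and 9.58 on DMSO arrays, a log2 change of 0.67 (SE 0.08, adjusted p = 0.000194 in limma). Nfyb, a subunit of the factor that binds the CCAAT box, fell by 0.35, a call kept in 9 of 12 alternatives and lost when TKI258 replicate 2 or either of DMSO replicates 2 and 3 was dropped. Nfe2l2, for NRF2, had 0.15 (adjusted p = 0.0949 in limma) and Nfe2l3 0.01. Of 8 measured genes for ubiquitin activation, shuttle receptors and the segregase that pulls proteins out of complexes 3 were lower and none higher. Their median log2 change was -0.18. These 8 also had mean signals above 5, where 21.2% of genes were called lower, and no test of the list was made. The shuttle receptor genes Ubqln4, Rad23b and Ubqln1 fell by 0.39, 0.27 and 0.23, and Ubqln1 lost its call when any DMSO array was left out. Another of them, Ubqln2, had a log2 change of 0.22 and did not pass (adjusted p = 0.117 in limma). It passed as higher without TKI258 replicate 2, at 0.0477 in a range of 0.0477 to 0.297 over 12 alternatives. The ubiquitin-activating enzyme gene Uba6 had -0.23 (adjusted p = 0.0525 in limma) and the segregase gene Vcp 0.03.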

How the data were processed

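The deposited table holds log2 signals of 35557 probe sets on 6 arrays. Per the submitters' processing notes the authors used RMA, affy and limma, with no versions or roles given; that the scale is log2 was read from the values, which run from 1.62 to 13.96. No build is stated for the arrays; only the promoter windows carry one, GRCm38.p6 from RefSeq. RMA normally gives the arrays 1 common distribution, so a change shared by all genes would not show. Gene names came from GEO's platform table (annotation of 2016); 21789 probe sets had 1 symbol, 1621 several and 12147 none, and those with 1 were used. Each gene took its brightest probe set.

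The test of TKI258 against DMSO used limma 3.58.1 (R 4.3.3; lmFit and eBayes, treatment only, two-sided, Benjamini-Hochberg over 19938 genes, threshold 0.05, no filter). The labels call the arrays of a group biological replicates, and 3 arrays per group limit the precision. The fit was tested on simulated data. The pass mark there covered large changes and false calls, not changes as small as those of the members. Members, lists and tests were chosen with earlier results of these data known. Values on every array are given for the 24 members with the smallest adjusted p and for Psmb5, Psmb6 and Psmb7. The promoters shown follow size of change; the pattern match Psmc3ip was passed over. Alternatives were the replicate block, each array left out, quantile normalization again, median centring, a mean above 5, the mean of probe sets, eBayes with trend and robust, and probe sets tested singly.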

Additional observations from a re-analysis of the deposited data

How the results depend on the processing

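Of the 16 genes past the threshold, 11 (Psmc3ip, Psmc4, Psmd3, Psmd6, Psmd7, Psmd10, Psmd11, Psmd12, Psme3, Psmg1 and Psmg2) passed in all 12 refits over genes. With 1 array left out in turn, the genes called lower numbered 11 to 20 of 45, the lid genes 5 to 7, the cap genes 7 to 11, the assembly factors 2 to 4 and the core genes 0 to 3. The partner genes called lower then numbered 4 to 8 and those higher 1 to 2. Psmd10 stayed the 1 member called higher throughout. The core count was 5 with a variance trend and robust moderation. The count of partner genes higher was 2 with quantile normalization again, with a mean above 5 and with the variance trend. The causes were not tested. With the replicate number as a block 16 members were lower, Psmd13 being added; same-numbered arrays deviated together with correlations of 0.018, 0.050 and 0.151, and 3 of 6 arrays correlated best with their own number, so the numbers were not taken to pair the dishes. Over all genes, centring on array medians gave 2497 higher and 2622 lower, against 2866 and 2519; among members it changed no call. The median change of the members ran from -0.20 to -0.12 over the 12 refits. Background correction was not varied, since only summarised values were used. With no detection calls, the changes of dim genes such as Psmb11 are the least certain.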
